A study of Mus musculus with 3 samples.

Results

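The intron sequence next to splice sites was examined in iCLIP maps of Tra2β from testes of adult wild type mice. The regions were the first 200 nt after the 5' splice site and the last 200 nt before the 3' splice site of introns of 1 to 100 kb, other than the first intron, in canonical transcripts of protein-coding genes. Bases that are exonic in any transcript on the same strand were removed. Of 187828 introns in 21770 transcripts, 92926 distinct introns of 15662 genes met the rule. After removal of exonic bases, 166744 edges had sequence left, 80228 at 5' splice sites and 86516 at 3' splice sites, out of 375656 intron ends in the annotation. The choice used position alone and no measured value. The remaining 19108 edges were exonic over their whole length in some transcript and gave no value.

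Testes were minced to release germ cells, and this material was irradiated with ultraviolet-C light. Endogenous Tra2β was immunoprecipitated with a polyclonal antibody. In iCLIP, reverse transcription tends to stop at the nucleotide fixed to the protein, so each unique cDNA marks 1 crosslink. All samples formed a single group of 3 biological replicates of wild type genotype, and the labels describe the cells as mixed. No control library was analysed here, so each edge was compared with the middle of its own intron in the same library. The libraries held 348033, 619571 and 488719 crosslinks in replicates 1, 2 and 3. Germ cell markers, such as Ddx4, Tnp2 and Prm2, all had crosslinks (11 of 11 genes). They held 1003, 507 and 1786 crosslinks in replicates 1, 2 and 3, fewest in the deepest library. Crosslinks were also found in 4 of 5 Sertoli cell markers (43 to 81 per library), 5 of 5 Leydig cell markers (40 to 56) and 3 of 3 peritubular myoid markers (6 to 15). Of 3 blood markers 1 had any (0 to 9), and Hbb-bs, Hba-a1 and the Sertoli marker Amh were at 0. In such mixed material, fewer cells of a type, also through the release step, and less RNA per cell cannot be told apart.

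Tra2β is a splicing activator of the SR-like family that binds GAA-rich RNA, usually within exons, and helps U1 and U2 snRNPs to recognise the neighbouring splice sites. The ends of an intron differ in the signals they carry. The 5' splice site begins with GU and pairs with U1 snRNA. The 3' end holds a branch point, bound by U2 snRNP, then a pyrimidine-rich tract bound by U2AF, and closes with AG. In the introns examined, 92137 (99.2%) began with GT and ended with AG, 649 (0.698%) were GC-AG and 96 (0.103%) were AT-AC introns.

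The sequences below show edges that results on single introns turn on, in GRCm39 and written 5' to 3' on the transcribed strand, with every nucleotide that carried a crosslink in any library in capitals. Edges at 5' splice sites start at the splice site, and edges at 3' splice sites end at it. The first is the 5' edge that was called above its middle, the next 3 are 5' edges among those with the most crosslinks, and the last has crosslinks at the final nucleotide of the intron. All but the first were picked after their values were seen.
Cd55b intron 9, 5' edge, chr1:130337409-130337608, minus strand: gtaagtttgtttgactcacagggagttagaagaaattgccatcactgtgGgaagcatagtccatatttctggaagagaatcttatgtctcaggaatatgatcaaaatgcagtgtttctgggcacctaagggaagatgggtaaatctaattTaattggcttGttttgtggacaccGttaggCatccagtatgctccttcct
Tsbp1 intron 19, 5' edge, chr17:34671489-34671688, plus strand: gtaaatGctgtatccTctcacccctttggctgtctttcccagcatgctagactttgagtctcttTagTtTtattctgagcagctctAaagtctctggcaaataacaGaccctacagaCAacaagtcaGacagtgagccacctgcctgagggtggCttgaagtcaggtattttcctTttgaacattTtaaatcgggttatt
Dnah8 intron 14, 5' edge, chr17:30887325-30887524, plus strand: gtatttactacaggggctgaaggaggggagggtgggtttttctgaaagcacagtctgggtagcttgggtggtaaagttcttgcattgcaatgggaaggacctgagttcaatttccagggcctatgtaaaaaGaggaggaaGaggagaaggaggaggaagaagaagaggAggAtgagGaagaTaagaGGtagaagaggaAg
Nasp intron 6, 5' edge, chr4:116467400-116467599, minus strand: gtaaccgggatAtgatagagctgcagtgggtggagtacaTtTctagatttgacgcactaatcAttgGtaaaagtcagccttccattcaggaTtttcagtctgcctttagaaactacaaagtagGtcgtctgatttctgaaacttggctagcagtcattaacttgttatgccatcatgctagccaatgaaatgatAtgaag
Odf2 intron 9, 3' edge, chr2:29804043-29804242, plus strand: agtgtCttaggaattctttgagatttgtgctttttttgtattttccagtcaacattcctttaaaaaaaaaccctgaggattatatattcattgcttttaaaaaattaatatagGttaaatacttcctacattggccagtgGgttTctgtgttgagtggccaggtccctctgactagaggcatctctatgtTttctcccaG

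The edges took a small part of each map. They held 1.47%, 1.14% and 1.42% of the crosslinks in replicates 1, 2 and 3, and the middles of the same introns held 18.6%, 19.02% and 15.6%. The 5' edges carried 2498, 3205 and 3153 crosslinks over 15631870 nt, which is 0.160, 0.205 and 0.202 crosslinks per kb. The 3' edges carried 2613, 3843 and 3763 over 16880312 nt, or 0.155, 0.228 and 0.223 per kb. The middles had 0.141, 0.257 and 0.166 per kb. Replicate 2 was the densest library in the middles by a wide margin and at the edges by a narrow one. Single edges were thinly covered. A crosslink in any library was found in 7068 of the 5' edges (8.81%) and in 8085 of the 3' edges (9.35%), and 5781 and 6605 of these had a single crosslink. The highest counts in any edge were 14 and 19.

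The first question was whether the edges as a whole differed from the middle of the same introns. A rate ratio was formed with each intron as its own stratum, so that gene expression cancels, and its 95% interval covers counting error only. The 5' edge ratio was 1.06 (1.02 to 1.103) in replicate 1, 0.816 (0.787 to 0.847) in replicate 2 and 1.08 (1.04 to 1.12) in replicate 3. The 3' edge ratio was 0.996 (0.957 to 1.04), 0.864 (0.836 to 0.894) and 1.15 (1.11 to 1.19). Neither side had the same direction in all libraries. On the log2 scale the mean was -0.03 ± 0.23 (SD, n = 3) for 5' edges and -0.01 ± 0.20 for 3' edges, with exact sign-flip p = 1 and p = 0.75. With 3 libraries this two-sided test cannot give a p below 0.25. Replicate 2 stood apart from the others, and without it the means were 0.10 on both sides. The 3' edge over the 5' edge gave 0.954, 1.08 and 1.08 (log2 mean 0.05 ± 0.11, exact sign-flip p = 0.5). As a background, 200 nt at the midpoint of each intron against the rest of its middle gave 0.966, 0.997 and 0.970.

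**Figure D1:**
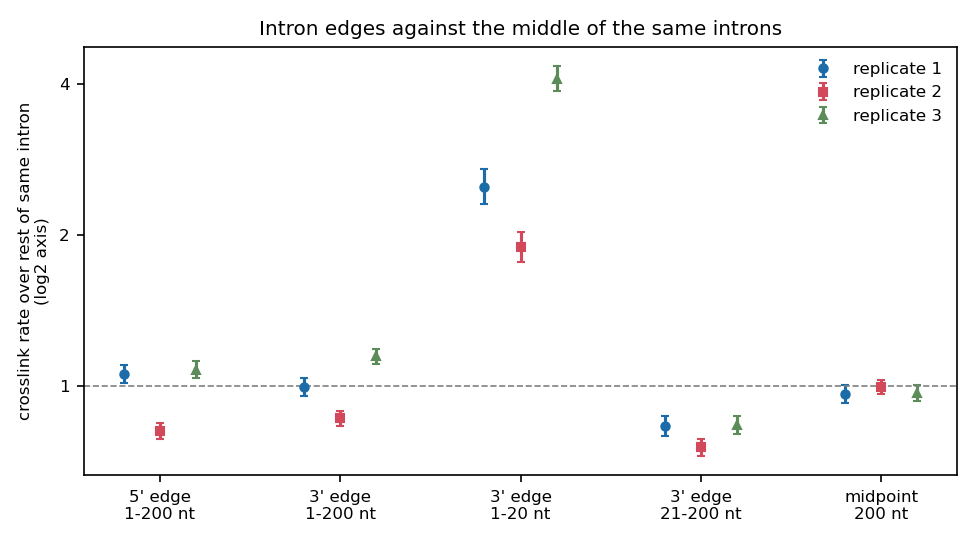
Crosslink rate of each region over the rest of the same introns, per library, on a log2 axis; bars are 95% intervals for counting error and the dashed line marks an equal rate. Whole edges lie on both sides of 1, whereas the last 20 nt lie between 1.90 and 4.10 and the stretch from 21 to 200 nt lies between 0.756 and 0.837.

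The 3' edge was made of opposite parts. The last 20 nt of introns had 2.502 (2.31 to 2.71), 1.90 (1.77 to 2.03) and 4.10 (3.88 to 4.34) times the middle rate in replicates 1, 2 and 3. The next 180 nt, from 21 to 200 nt before the splice site, had 0.836 (0.798 to 0.875), 0.756 (0.728 to 0.785) and 0.837 (0.804 to 0.873). All libraries were above 1 in the first stretch and below 1 in the other, and no interval reached 1 (log2 means 1.43 ± 0.56 and -0.31 ± 0.08, SD, n = 3, exact sign-flip p = 0.25 for both). At 5' splice sites the first 20 nt gave 0.827, 0.902 and 0.992, and the stretch from 21 to 200 nt gave 1.08, 0.808 and 1.09, with replicate 2 again on the other side of 1. The finer stretches given below were set after the profile had been seen.

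**Figure D2:**
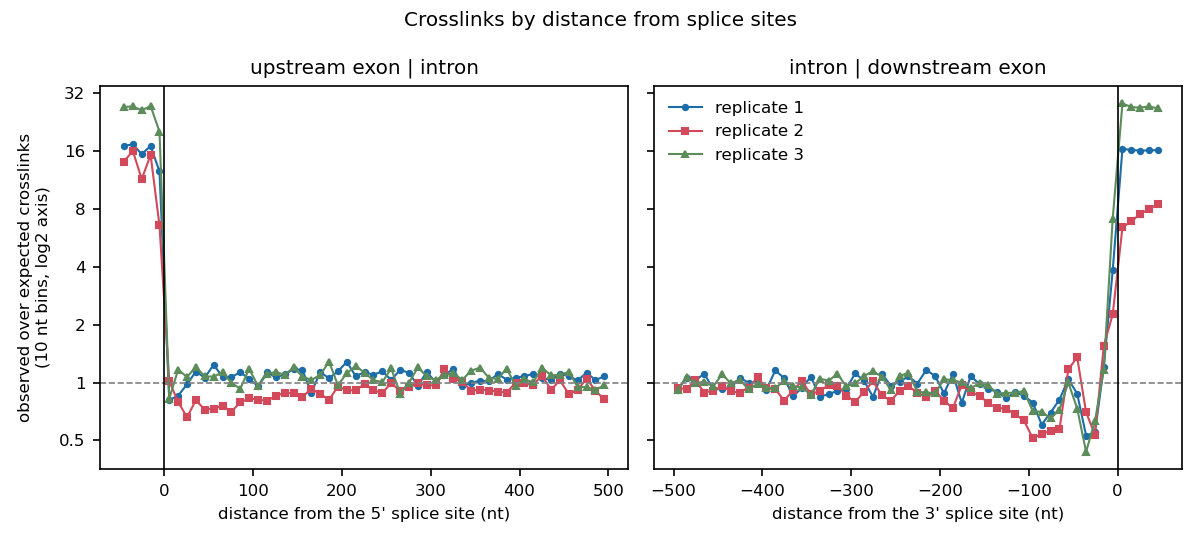
Observed over expected crosslinks in bins of 10 nt by distance from the 5' splice site (left) and the 3' splice site (right), per library, log2 axis; the expected count is the middle rate of the same introns, and 50 nt of the neighbouring exon are drawn beyond the vertical line. Exons lie at 6.44 or above in all libraries, 5' edges stay near 1, and 3' edges show a dip, a shoulder near 50 nt and a rise towards the exon.

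Exons were set beside the edges for scale. Spliced RNA holds exons and not introns, so the exon ratios mix the amount of RNA with crosslinking to it. The first 10 nt of the downstream exon had 16.5, 6.44 and 28.4 times the crosslinks expected from the intron middles, and the last 10 nt of the upstream exon had 12.6, 6.59 and 20.3 times. At the 5' splice site the fall began in the last nucleotides of the exon in replicates 1 and 3. The last exon nucleotide had 1.98, 6.73 and 1.86 times the expected count, and the nucleotide before it 3.76, 5.15 and 4.43 times. In replicate 2 the last exon nucleotide was not below the last 10 nt as a whole. The first 10 nt of the intron had 0.810, 1.01 and 0.824 times the expected count. Nucleotide 1 of the intron carried 6, 20 and 6 crosslinks in all, with ratios of 0.534, 1.07 and 0.432 to the middle. At the 3' splice site the rise began inside the intron. It was 1.21, 1.56 and 1.17 times the expected count from 11 to 20 nt and 3.83, 2.26 and 7.14 times in the last 10 nt.

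The last nucleotide of the intron, the G of AG, stood out from its neighbours. It held 195, 120 and 461 crosslinks, which is 15.8 (13.7 to 18.1), 5.68 (4.74 to 6.79) and 29.8 (27.1 to 32.7) times the middle rate. These ratios were close to those of the first nucleotide of the downstream exon in the same libraries, 15.9, 5.78 and 27.6. The 776 crosslinks came from 698 introns of 552 genes and at most 7 came from 1 edge, in Cfap36 intron 6. An iCLIP map writes a crosslink 1 nt before the start of its cDNA, so a cDNA that begins with the first base of an exon is placed on the last base of the intron. Whether these cDNAs came from spliced or unspliced RNA was not tested. In spliced RNA the base before such a cDNA is the last nucleotide of the upstream exon, where the map then does not count it. How far this changes the ratio of that exon nucleotide was not tested either. The edge of Odf2 intron 9, in a gene for an outer dense fibre protein of the sperm tail, had 3 crosslinks on this G, all in replicate 3.

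From 2 to 20 nt before the 3' splice site, which covers the A of the AG and the pyrimidine tract, the ratio to the middle was 1.81 (1.65 to 1.99), 1.70 (1.57 to 1.83) and 2.77 (2.58 to 2.97). This stretch held 434, 688 and 830 crosslinks. Pyrimidines made up 85.7% of bases at 5 nt and 65.2% at 20 nt, and uridine 45.9% of bases from 2 to 20 nt. Uridine was the crosslinked base in 54.1%, 52.3% and 50.7% of crosslinks there, 1.18, 1.14 and 1.11 times its share of bases. In the middles, uridine took 51.9%, 34.5% and 52.9% of crosslinks against 30.2% of bases. The share of crosslinked uridine in the tract was thus alike in all libraries, while replicate 2 had a lower share in the middles. A read of spliced RNA can begin with a few bases of the upstream exon and run on into the downstream exon. The aligner can place those first bases on the end of the intron if the letters match. At 4 nt before the splice site, 11.3% of 150 crosslinks lay in introns whose last 3 nt equal the last 3 nt of the upstream exon, against 17.2% of all introns. At 3 nt, with 2 matching nt, the shares were 46.9% of 143 crosslinks and 57.3% of introns, at 2 nt 69.4% of 157 and 80.2%, and at 5 nt, with 4 matching nt, 3.95% of 177 and 4.55%. These shares are over all libraries and are set against all introns, crosslinked or not. Only full matches were counted, so the shares do not measure how many reads were misplaced. Replicate 1 went the other way at 4 nt (18.9% against 17.2%) and at 5 nt (8.57% against 4.55%), on 37 and 35 crosslinks.

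**Figure D3:**
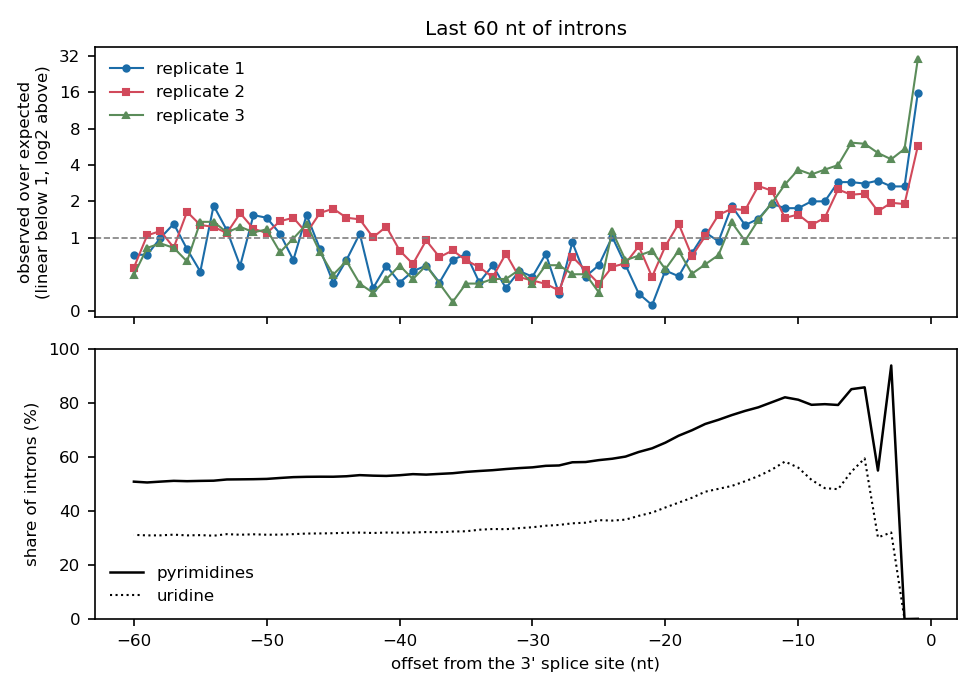
Upper panel, observed over expected crosslinks at each of the last 60 nt of introns, per library, linear below 1 and log2 above; lower panel, share of introns with a pyrimidine or a uridine at each offset. The rise over the last 15 nt falls on the pyrimidine-rich tract, and the final nucleotide reaches 15.7, 5.72 and 29.9.

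Farther into the intron the 3' edge had a dip, a shoulder and a broader dip. From 21 to 40 nt the ratio was 0.534 (0.451 to 0.632), 0.614 (0.544 to 0.692) and 0.531 (0.457 to 0.618), the lowest of all stretches on this side in replicates 1 and 3. Branch points usually lie in this range. From 41 to 60 nt it was 0.954 (0.842 to 1.08), 1.25 (1.15 to 1.36) and 0.864 (0.768 to 0.972). From 61 to 100 nt it was 0.721, 0.541 and 0.692, and beyond 100 up to 200 nt 0.919, 0.777 and 0.950. The shoulder at 41 to 60 nt was 1.78, 2.01 and 1.63 times as dense as the stretch nearer the splice site and 1.32, 2.32 and 1.24 times as dense as the stretch from 61 to 100 nt. No interval of these 6 ratios reached 1. Only in replicate 2 was the shoulder above the middle of the introns. Beyond 200 and up to 500 nt the ratios were 0.995, 0.907 and 0.993.

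Sequence makeup and read placement moved with the edges as follows. A map that crosslinked each 5 nt word at its rate in the middles would give 1.01, 1.01 and 1.00 for 5' edges and 1.04, 0.990 and 1.04 for 3' edges. Bases whose next 36 nt occur once in the genome made up 92.5% of 5' edges, 93.4% of 3' edges and 87.0% of middles. With such bases alone the mean log2 ratios were -0.09 at 5' edges and -0.08 at 3' edges, against -0.03 and -0.01.

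Edges did not stand on a flat background, since crosslinks declined along introns. Against the rest of the middle, the first 10% of its length had 1.16, 1.04 and 1.15 times the rate and the last 10% 0.925, 0.835 and 0.928. The first 10% over the last 10% gave 1.22 (1.18 to 1.27), 1.21 (1.18 to 1.24) and 1.23 (1.19 to 1.27) (log2 mean 0.29 ± 0.01, exact sign-flip p = 0.25). Against the next 300 nt of the same intron, in introns over 1500 nt only, 5' edges had 0.974, 0.842 and 1.01. The 3' edges had 0.992, 0.933 and 1.15.

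Intron length was compared next, in classes from 1 to 3 kb up to 30 to 100 kb. In the longest class, 3' edges had 31, 76 and 40 crosslinks and ratios of 0.613 (0.431 to 0.872), 0.729 (0.582 to 0.914) and 0.695 (0.509 to 0.948). In the shortest class the ratios were 1.03, 0.953 and 1.18. The longest class was lower in all 3 libraries, by a log2 difference of -0.63 ± 0.21 (SD, n = 3, exact sign-flip p = 0.25). The difference lay in the stretch from 21 to 200 nt, where the longest class had 0.439, 0.554 and 0.443 and the shortest 0.870, 0.837 and 0.837 (log2 difference -0.83 ± 0.21). The longest class held only 20, 52 and 23 crosslinks there. Introns of 3 to 10 kb had 0.832, 0.693 and 0.853 in this stretch, and those of 10 to 30 kb 0.768, 0.684 and 0.859. The reference was the whole middle, along which crosslinks declined. In the last 20 nt the longest introns had 2.21, 2.33 and 2.99 and the shortest 2.51, 2.05 and 4.40, a log2 difference of -0.18 ± 0.37 that changed sign between libraries. At 5' edges the longest class had 1.14, 0.766 and 1.37 and the shortest 1.05, 0.877 and 1.01, again with both signs among the libraries.

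**Figure D4:**
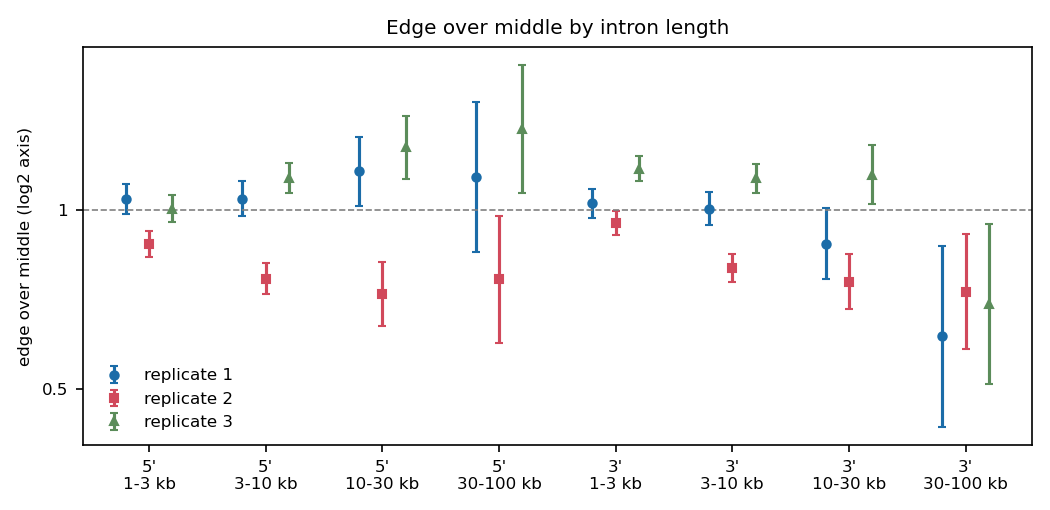
Rate of 5' edges (left) and 3' edges (right) over the middle by intron length class, per library, log2 axis, with 95% intervals for counting error. For 3' edges of introns of 30 to 100 kb all libraries lie below 1, between 0.613 and 0.729.

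The sequence that Tra2β is known for was then looked up in the edges. The words searched were GAAGA and AGAAG, with their overlap AAGAA, and the related CGAAG and ACGAA, all on the transcribed strand with overlapping matches counted. At least 1 was present in 51.2% of 5' edges, 48.1% of 3' edges and 60.3% of downstream exons. They were taken from an earlier look at exons of these libraries, so they are not independent of the maps. For the test, bases within 30 nt of a match were compared with the other bases of the same edge. A match counted wherever it lay, so a word in the neighbouring exon also marked edge bases as near. Words inside and outside the edge were not told apart. Such bases made up 20.9% of 5' edges, 19.95% of 3' edges and 21.8% of middles. In 5' edges they had 1.09 (0.973 to 1.22), 1.62 (1.48 to 1.78) and 1.16 (1.05 to 1.27) times the crosslink rate. In 3' edges the ratios were 1.40 (1.27 to 1.54), 1.93 (1.78 to 2.09) and 1.61 (1.49 to 1.74), and in the middles 1.29, 2.32 and 1.34. All were above 1, and replicate 2 was highest in every region. The 5' edges were lower than the middles in all libraries (log2 difference -0.33 ± 0.17, SD, n = 3, exact sign-flip p = 0.25). The 3' edges differed from the middles by 0.04 ± 0.27, with both signs. Without the 20 nt next to the splice site the 3' edge ratios were 1.19, 1.57 and 1.27, each below the ratio of the middles in the same library. No test was run on that difference. The Dnah8 intron 14 edge printed above, with its purine run, holds the central bases of 14 such words. Some of these words run past the printed end. The edge carried 10 crosslinks, all in replicate 2. Dnah8 encodes an axonemal dynein heavy chain of the sperm tail.

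The exon beside the edge was compared in several ways. Where the neighbouring exon held one of these words, 3' edges had 1.05, 0.925 and 1.21 times the middle rate, and where it held none 0.895, 0.744 and 1.06. The difference on the log2 scale was 0.24 ± 0.07 and was above 0 in all 3 libraries (exact sign-flip p = 0.25). At 5' edges it was 0.17 ± 0.13, also above 0 in all. Whether the exon is skipped in another transcript of the gene made a smaller difference. Skipped minus constitutive was -0.00032 ± 0.041 at 5' edges, with both signs, and -0.06 ± 0.05 at 3' edges, below 0 in all 3 libraries.

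Crosslinked exons went with crosslinks at the very end of the intron. Of introns with sequence at the last nucleotide, 37.5% had a downstream exon with a crosslink in any library. Of the 776 crosslinks on that nucleotide 87.2% lay beside such an exon, as did 80.1% of the 1952 from 2 to 20 nt, 75.0% of the 575 from 21 to 40 nt and 71.8% of the 4524 beyond 100 and up to 200 nt. Expressed genes have more crosslinks in both, so the ratio to the middle was also taken within each kind. Beside exons with crosslinks the last nucleotide had 19.6, 6.68 and 36.3 times the middle rate, and beside exons without any it had 5.55 (3.54 to 8.71), 3.55 (2.38 to 5.30) and 12.8 (9.76 to 16.8). From 2 to 20 nt the values were 2.01, 1.88 and 3.23 and 1.29 (1.04 to 1.60), 1.31 (1.12 to 1.52) and 1.58 (1.33 to 1.88). The rise at the intron end was thus also present, and smaller, where the exon had no crosslink. The dip from 21 to 40 nt was present in both kinds, with 0.550, 0.662 and 0.571 beside exons with crosslinks and 0.492, 0.510 and 0.426 beside the others. From 41 to 60 nt, exons with crosslinks had 0.932, 1.37 and 0.941 beside them, against 0.700, 0.548 and 0.682 from 61 to 100 nt. Beside the others these were 1.01, 0.997 and 0.666, against 0.777, 0.525 and 0.718. The shoulder was thus absent from replicate 3 where the exon had no crosslink.

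Each edge was then tested against its own middle with an exact binomial test on length, summed over the libraries. An edge was called when the Benjamini-Hochberg adjusted p was under 0.05, its rate was above the middle, and each library had a crosslink in it. Of 38936 5' edges tested 1 was called (0.00257%), and of 42774 3' edges 2 were called (0.00468%). The midpoint windows, tested in the same way, gave 3 of 41985 (0.00715%), so the edges were not called more often than this background. At an unadjusted p under 0.05, in either direction, there were 325 5' edges, 422 3' edges and 382 midpoint windows. Of the tested edges 304 at 5' and 393 at 3' splice sites had 3 or more crosslinks, so most introns were too thinly covered for a call.

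Igf2r encodes the receptor that clears insulin-like growth factor 2 and sorts lysosomal enzymes. The 3' edge of its intron 36 had 4, 2 and 13 crosslinks at 15 positions, all from 58 to 99 nt before the splice site. The other 721 nt of the middle had 0 in each library. Over the libraries this was 95 crosslinks per kb, 22.8-fold the 4.16 per kb that a floor of 3 counts allows in the middle (adjusted p = 2.14e-08, exact binomial test). This fold and the next leave out the counting error of the edge itself. The 3' edge of intron 2 of Map3k19, a protein kinase gene, had 3, 1 and 5 crosslinks at 158 to 195 nt against 0 in 2488 nt. This was 37.3-fold the rate that the same floor allows (adjusted p = 2.99e-06, exact binomial test). Replicate 3 gave the larger part of both, and without it neither edge was called.

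With bases limited to those whose next 36 nt are unique, Igf2r kept 4, 2 and 12 crosslinks and its call (adjusted p = 4.12e-06, exact binomial test), while Map3k19 kept 1, 0 and 1 and lost it. The part of read placement in these calls beyond this measurement was not tested.

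The called 5' edge was in intron 9, the last, of Cd55b, a complement regulator gene. It had 1, 2 and 2 crosslinks in 200 nt, between 50 and 181 nt from the splice site, against 5, 3 and 7 in 20567 nt of middle (25.0 against 0.729 crosslinks per kb, adjusted p = 0.0296, exact binomial test). With unique bases the adjusted p was 0.356, and the call was also lost without replicate 1, 2 or 3 in turn.

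**Figure D5:**
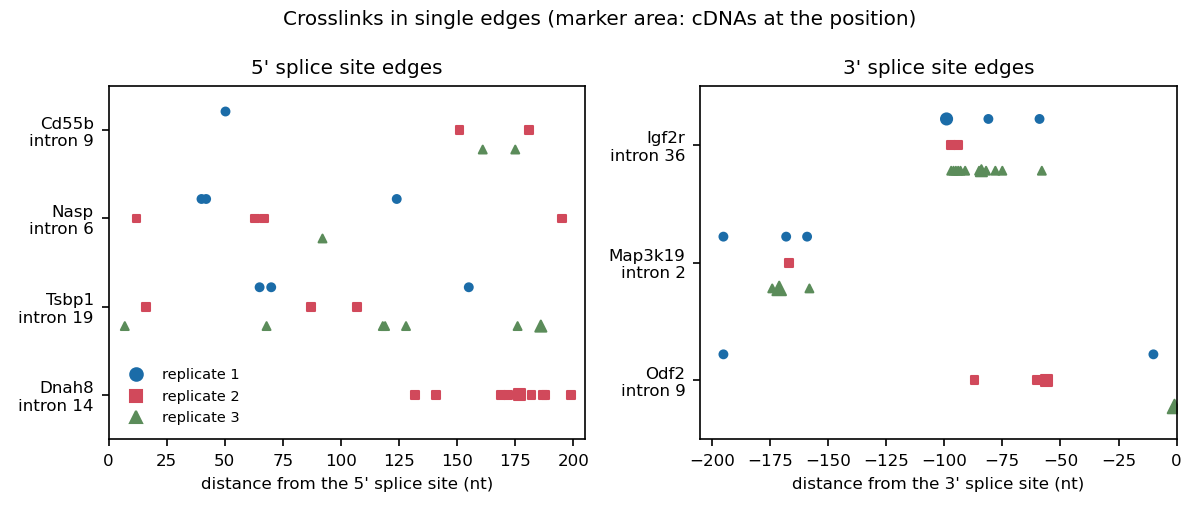
Positions of crosslinks in single edges by distance from the splice site, for 5' edges (left) and 3' edges (right); colours and symbols give the library, each placed at its own height, and marker area the number of cDNAs at a position. In Igf2r all libraries fall between 58 and 99 nt from the splice site, and in Dnah8 only replicate 2 has crosslinks.

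The 5 edges on each side with the most crosslinks, which include Igf2r and Map3k19, ranged from below their own middles to far above them. The 5' edge of intron 19 of Tsbp1, a testis-expressed gene, had 3, 3 and 8 crosslinks, and its middle had 78, 245 and 85. Per kb these were 70.0 and 64.7, and the difference was not called (adjusted p = 1, exact binomial test). The 5' edge of Tsbp1 intron 7 had 1, 8 and 2 crosslinks, or 55.0 per kb against 95.8 in its middle. The 5' edge of Tsbp1 intron 6 had 2, 7 and 1, or 55.9 against 27.2 per kb. The 10 crosslinks of the Dnah8 intron 14 edge came to 50 per kb against 11.3, which did not pass after adjustment (unadjusted p = 0.000961, exact binomial test). The Nasp edge is given below. Acrv1 encodes a protein of the acrosome, the vesicle at the head of the sperm. The 3' edge of its intron 3 had 4, 3 and 3 crosslinks, or 50 per kb against 36.6. Ptpn20, a tyrosine phosphatase gene, had 1, 6 and 2 in the 3' edge of intron 5, or 45.0 against 35.4 per kb. Odf2 intron 9 had 2, 4 and 3 in its 3' edge against 0, 7 and 2 in 1190 nt, 45.0 and 7.56 per kb, which did not pass after adjustment (unadjusted p = 0.000744, exact binomial test).

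By gene, crosslinks in edges were spread over 5594 genes, and the 10 leading genes held 3.397% of 19075. Dnah8 led with 25, 65 and 53 crosslinks in the edges of 73 introns. Potefam1 had 24, 30 and 34 and Gm45861 22, 25 and 27. Next came Dnah14, another dynein heavy chain, with 22, 22 and 15, Cfap43 with 23, 13 and 20 and Tsbp1 with 10, 24 and 22. Efcab3, Hydin and Cfap46 followed with 40 to 46 in all. Hydin and the Cfap genes encode parts of the axoneme or its assembly. These are counts, which also follow the number of introns and the level of the RNA.

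The listed introns beside or holding splicing events that the study named had few crosslinks in each edge. The list leaves out Tra2a and Tra2b, which are counted with the SR genes below. For Ggnbp2 only intron 5 was taken. Nasp intron 5 and Phf7 introns 8 and 9 did not meet the rule. Of 26 edges of 13 introns in 8 genes, 23 had sequence left, 6 of these (26.1%) had a crosslink and 0 were called. Over all edges 8.81% at 5' and 9.35% at 3' splice sites had a crosslink. The shares do not account for the level of the RNA, and their difference was not tested. Nasp encodes a histone chaperone, and the 5' edge of its intron 6 had 3, 4 and 1 crosslinks, spread from 12 to 195 nt. This was 40 per kb against 14.2 in the middle (unadjusted p = 0.0231, adjusted p = 1, exact binomial test). The 5' edge of intron 14 of Rpgr, a ciliary transport gene, had 0, 3 and 0. A single crosslink in 1 library was found in Ggnbp2 intron 5, Cep126 intron 5 and Rad18 intron 9 (3' edges) and in Rad18 intron 10 (5' edge). Intron 8 of Ptbp2, a splicing repressor gene, had 27, 42 and 35 crosslinks in its middle and 0 in the 185 nt left of its 3' edge, and its 5' edge was exonic in another transcript. Introns of Map7d2 and Slc4a1ap had no crosslink in their edges. Of these, 12 edges in all lay in introns with at most 2 crosslinks in the middle, where an empty edge carries little information.

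Genes of the SR family, the relatives of Tra2β, had crosslinks in a larger share of their edges than genes in general, with low counts in each. Of 14 genes, 12 had an intron that met the rule, 27 introns in all, and 15 edges on each side had sequence left. A crosslink was found in 5 of the 5' edges (33.3%, against 8.81% of all 5' edges) and 4 of the 3' edges (26.7%, against 9.35%), 18 crosslinks in all, in 6 genes. This difference too was not tested, and it does not account for the level of the RNA. Srsf10 had 2, 3 and 4, Tra2b itself 1, 2 and 1, and Srsf3, Srsf4, Srsf11 and Tra2a 1 or 2 in all. None was called, against 0.00257% and 0.00468% of all edges tested.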

How the data were processed

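Tra2β iCLIP libraries from 3 adult wild type mouse testes were analysed. The authors had run the iMAPS pipeline, and each deposited file gave, per strand and crosslinked nucleotide, raw counts of cDNAs after duplicate removal, with replicates kept apart. The submitters' processing notes name Trim Galore 0.6.7, Bowtie 1.3.1, STAR 2.7.9a, UMI-tools 1.1.2 and the build mm39. How reads with several matches were placed is not given in the sources used here, and such placement can move crosslinks into or out of repeats.

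Introns and exons came from GENCODE vM39 on GRCm39. The middle of an intron was all sequence over 200 nt from both splice sites, without exonic bases. Rates were compared by Mantel-Haenszel ratios stratified by intron, per library, with Greenland-Robins 95% intervals, then as mean ± SD of log2 ratios with an exact sign-flip test. Single edges were tested by a two-sided exact binomial test with Benjamini-Hochberg adjustment. An exon was skipped when an intron of another transcript of its gene spans it. Edges named are those called, the 5 per side with the most crosslinks, those of introns the study named, the 10 leading genes and the SR genes, and 1 leading gene is not reported here. The planned list of called edges with at least 3 crosslinks in each library was empty. Depth was 348033 to 619571 crosslinks. Intervals, floors of 3 counts and p-values of the binomial test cover counting error only. Members and lists were chosen with earlier results of these data known. Python 3 with numpy, scipy and pandas was used, and the estimators were tested on simulated data.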

Additional observations from a re-analysis of the deposited data

Results flagged for a closer look

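Crosslinks on the strand opposite to the gene, where no annotated gene lies, were outside the comparisons above, and they numbered 3348 in the edges of the same introns, above the 3 counts that a count of 0 allows. The 5' edges had 284, 950 and 306 of them and the 3' edges 339, 1101 and 368 in replicates 1, 2 and 3. Against antisense crosslinks in the middles, 5' edges gave 0.919 (0.813 to 1.04), 0.986 (0.922 to 1.05) and 0.905 (0.803 to 1.02). The 3' edges gave 1.19 (1.07 to 1.34), 1.24 (1.16 to 1.32) and 1.23 (1.11 to 1.37), above 1 in all 3 libraries (log2 mean 0.29 ± 0.03, SD, n = 3, exact sign-flip p = 0.25).

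Edges of first introns, which the rule leaves out, held 2511 crosslinks. Their 5' edges had 318, 560 and 336, or 0.943, 1.13 and 0.834 times the middle rate, with replicate 2 above 1 and the others below it, the reverse of the order in later introns. Their 3' edges had 356, 451 and 490, or 0.856, 0.764 and 1.00 times. The difference between first and later introns was not tested.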

How the results depend on the processing

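Over 173 alternatives the value kept its direction and stayed within the spread between libraries, or within 1.5 times for counts, in 129. All ratios here are mean log2 values. The whole-edge means were so close to 0 that many settings changed their sign. For 5' edges over the middle (-0.03), a width of 500 nt gave 0.029, a pooled ratio without strata 0.046, no removal of exonic bases 0.016, positions with at least 2 cDNAs -0.49, and leaving out each replicate -0.11 to 0.10. For 3' edges (-0.01), a width of 50 nt gave 0.59, 100 nt 0.16, a narrower central part as the middle 0.0029, the pooled ratio 0.13, no removal of exonic bases 0.0020, positions with at least 2 cDNAs -0.72, leaving out the nearest 20 nt -0.31, and leaving out each replicate -0.11 to 0.10. Of settings chosen after seeing the data, the next 300 nt as reference, in introns over 1500 nt, gave 0.028. The nearest 10% of the middle gave 0.013, and introns whose neighbouring exon had no crosslink -0.23. For 3' over 5' edges (0.05), widths of 50, 100 and 500 nt gave 0.73, 0.27 and -0.047, leaving out the nearest 20 nt -0.27, no removal of exonic bases -0.0084, positions with at least 2 cDNAs -0.20 and introns of 3 to 100 kb -0.018. The count of called 5' edges (1) was 0 with a width of 100 nt, a test in each library, an adjusted p under 0.01, 3 crosslinks in each library or unique 36-mers, and 0 to 1 without a replicate, with Cd55b called in none of these and Nek1 intron 8 called without replicate 3. The count of called 3' edges (2) was 1 with 100 nt or unique 36-mers and 0 with a test in each library or 3 crosslinks in each, and 1 to 3 without a replicate. Without replicate 3 neither Igf2r nor Map3k19 remained and the call was Rgs22 intron 22, and without replicate 1 Clasp1 intron 30 was added to both. The motif ratio in 3' edges (0.71) was 0.37 with GAA alone and 0.41 without the nearest 20 nt. The difference between skipped and constitutive exons at 5' edges (-0.00032) was 0.0060 with unique 36-mers and -0.021 to 0.020 without a replicate. The length difference at 5' edges (0.12) was -0.037 to 0.28 without a replicate. The stretch from 41 to 60 nt before 3' splice sites (0.02) gave -0.00092 with both strands masked, -0.052 with unique 36-mers and -0.14 to 0.14 without a replicate, and 21 to 40 nt after 5' splice sites (-0.07) gave -0.19 to 0.13 without a replicate. The other stretches before 3' splice sites kept their direction in every alternative run. The causes were not tested. Alternatives on soft-masked bases were not run because the genome sequence used carries no masking, and unique 36-mers were added in their place. No paired analysis was possible because there was 1 group. Depth limits single edges, since most crosslinked edges had 1 crosslink.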
